A study of Mus musculus with 2 samples.

Results

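The metalloproteinases described here were the 75 genes whose identifier was Mmp, Adam, Adamts or Timp followed by a number, out of 20003 genes in the deposited table. They comprised 23 matrix metalloproteinases (MMPs), 29 ADAMs, 19 ADAMTS proteinases and the 4 tissue inhibitors of metalloproteinases (TIMPs). Genes named Adamtsl were left out. Membership was set by gene name. The families, and the gene lists below, were chosen with earlier results of these data known.

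The series asked how a Hedgehog inhibitor alters the transcriptome of macrophages, and held 1 library per group. The GANT61-labelled library was given GANT61, an inhibitor of the GLI transcription factors, at 10 µM. The DMSO-labelled library was given the solvent alone. Both were labelled as RAW 264.7, a transformed mouse macrophage line, and both had M-CSF at 20 ng/ml overnight and IL-4 at 10 ng/ml, which was added 4 h after GANT61 or DMSO. The protocols disagree on how long IL-4 was present, naming 15 min under treatment but 24 h under growth. The GANT61-labelled library held 57705874 reads in genes and the DMSO-labelled library 61632784.

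MMPs are secreted or membrane-anchored zinc proteinases that cut collagens, elastin and other matrix proteins, and most are made as inactive precursors. ADAMs are membrane proteins, several of which release growth factors, cytokines and receptors from the cell surface, while ADAMTS proteinases are secreted and cut proteoglycans, procollagens and von Willebrand factor. TIMPs bind the active site of MMPs and of some ADAM and ADAMTS enzymes. Macrophages are known to make several MMPs, and MMPs and TIMPs are also made by fibroblasts, epithelial cells and neutrophils.

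Both libraries held markers of macrophages and of many other cell types, which goes against a label that names a macrophage line alone. All 14 macrophage markers were at 10 CPM (counts per 1000000 counts) or more in both libraries, and their summed level was 7812 CPM in the GANT61-labelled library and 3912 CPM in the DMSO-labelled library. Of 101 markers of 10 other cell types, 79 were also at 10 CPM or more in both, and none was at 0 reads in either. In the GANT61-labelled library fibroblast markers summed to 9697 CPM, epithelial markers (keratins, claudins and other genes of simple and basal epithelium) to 3690 CPM and adipocyte markers to 1130 CPM. In the DMSO-labelled library the same sums were 9578, 4195 and 6943 CPM. In libraries of bulk RNA, fewer cells of a type and less RNA per cell cannot be told apart. Each group had 1 library, so replicate spread could not be measured and no p-value is given. Ratios are of scaled counts, GANT61-labelled over DMSO-labelled, with a 95% exact interval that covers counting error only. A gene was called higher at a ratio of at least 1.5, or lower at the inverse of that or less, if its interval excluded 1 and its mean level was at least 1 CPM.

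Of the 75 genes, 46 reached a mean of 1 CPM. Of these, 17 were higher in the GANT61-labelled library, 2 were lower and 27 were neither. The lower count depended on the floor. With no floor 18 members were higher and 6 lower, beside 13.4% and 9.76% of all genes, and with a floor of 5 CPM 16 were higher and 0 lower, beside 11.7% and 8.45% of all genes. Mmp28, Timp4 and Mmp27 lost their calls under the floor of 5 CPM. With a fold of 2 in place of 1.5, 12 members were higher and 2 lower. Over all 13939 genes that reached this level, 14.1% were higher and 10.3% were lower, 24.4% in either direction, against 37.0% and 4.35% of the 46. With the fold of 2 these shares over all genes were 6.97% and 4.27%, or 11.2% in either direction. The median log2 ratio was 0.32 over the 46 and -0.01 over all genes. The level was reached in both libraries separately by 45 of the 46, the exception being Timp4. The other 29 genes had between 0 and 43 reads in the GANT61-labelled library and between 0 and 83 in the DMSO-labelled library. Without the floor 1 of them would be called higher and 4 lower, beside 10.1% and 7.47% of all genes below 1 CPM, or 17.6% in either direction.

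The counts differed by family, and stand beside 14.1% higher and 10.3% lower over all genes. Of 16 MMPs that reached 1 CPM, 9 were higher and 1 was lower, with a median log2 ratio of 1.14. Among 12 ADAMs, 5 were higher and 0 lower; their median was 0.31. Among 14 ADAMTS genes, 2 were higher and 0 lower, and the median was again 0.31. The ADAMTS share called higher, 14.3%, was near that of all genes and does not set this family apart. The 4 TIMPs gave 1 higher, 1 lower and 2 neither, too few to read against these shares. The differences between families were not tested.

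**Figure D1:**
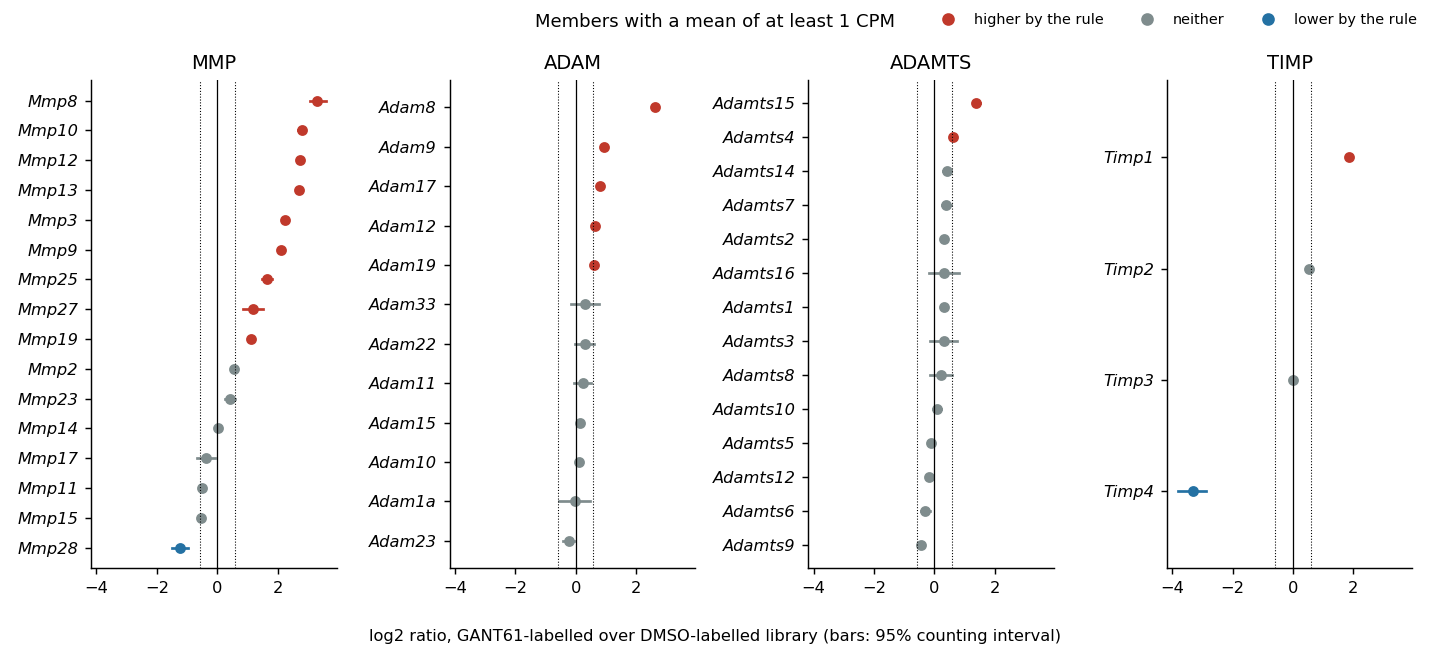
Log2 ratio of the GANT61-labelled over the DMSO-labelled library for the 46 genes whose mean was 1 CPM or more, by family, with 95% counting intervals as bars. Dotted lines mark a ratio of 1.5 and its inverse. The MMPs spread from -1.23 to 3.32, the ADAMs from -0.24 to 2.62, the ADAMTS genes from -0.44 to 1.39 and the TIMPs from -3.31 to 1.85.

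The collagenases, which make the first cut in fibrillar collagen, included the largest ratio among the MMPs. Mmp8, the collagenase stored in neutrophil granules, had 1215 reads in the GANT61-labelled library and 134 in the DMSO-labelled library. Its ratio was 9.95 (8.35 to 12.0), the largest of the 46. Mmp13, collagenase 3, was at 720.3 CPM in the GANT61-labelled library and 110.3 CPM in the DMSO-labelled library. Its ratio of 6.53 (6.36 to 6.70) rests on 40933 reads in the GANT61-labelled and 6905 in the DMSO-labelled library. The rodent genes most similar to human collagenase 1, Mmp1a and Mmp1b, stayed below the 1 CPM floor, Mmp1a with 13 reads in the GANT61-labelled library and 7 in the DMSO-labelled library, and Mmp1b with 30 reads in the GANT61-labelled and 3 in the DMSO-labelled library.

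Metalloelastase and 2 of the 3 stromelysins were also higher. Mmp12, the macrophage elastase, was at 1002 CPM in the GANT61-labelled library and 148 CPM in the DMSO-labelled library. Its ratio was 6.75 (6.61 to 6.90). Mmp10, stromelysin 2, had 81.3 CPM in the GANT61-labelled library and 11.7 CPM in the DMSO-labelled library, a ratio of 6.92 (6.40 to 7.49). Mmp3, stromelysin 1, which can also activate other MMP precursors, was at 418.7 CPM in the GANT61-labelled and 88.5 CPM in the DMSO-labelled library, a ratio of 4.73 (4.60 to 4.87). The deposited counts of Mmp3 and Mmp10 in the GANT61-labelled library each ended in 0.5 and were therefore not whole reads. Mmp11, stromelysin 3, which is only distantly related to Mmp3 and Mmp10, lay on the other side of 1 without reaching the threshold, at 27.7 CPM in the GANT61-labelled and 39.1 CPM in the DMSO-labelled library, with a ratio of 0.709 (0.665 to 0.756). Mmp7, matrilysin, had 13 reads in the GANT61-labelled library and 11 in the DMSO-labelled library.

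The gelatinases, which cut denatured collagen and basement membrane collagen, were unequal. Mmp9, gelatinase B, was at 595.3 CPM in the GANT61-labelled library and 138.8 CPM in the DMSO-labelled library, a ratio of 4.29 (4.19 to 4.39). It lies on chromosome 2 at 164940780 to 164955850, plus strand. Mmp2, gelatinase A, a typical product of fibroblasts, was at 267.4 CPM in the GANT61-labelled and 182.6 CPM in the DMSO-labelled library, a ratio of 1.46 (1.43 to 1.501), just under the threshold. Fibroblast markers had a median log2 ratio of 0.14 beside it, with 0 of 12 higher and 2 lower.

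The MMPs grouped here as membrane-anchored were Mmp14, Mmp15, Mmp16, Mmp17, Mmp24 and Mmp25. They mostly differed less, and the remaining MMPs went both ways. Mmp14, which activates the Mmp2 precursor at the cell surface, differed little, at 619.3 CPM in the GANT61-labelled and 609 CPM in the DMSO-labelled library, with a ratio of 1.02 (1.002 to 1.03). The side of 1 on which Mmp14 lay depended on the scaling. Mmp15 had a ratio of 0.693 (0.652 to 0.736) and Mmp17 of 0.776 (0.628 to 0.955), neither past the threshold. Mmp25, leukolysin, a membrane-anchored enzyme of leukocytes, was at 22.5 CPM in the GANT61-labelled library and 7.16 CPM in the DMSO-labelled library, a ratio of 3.14 (2.82 to 3.504). Mmp16 had 14 reads and Mmp24 had 6 in the GANT61-labelled library, against 18 and 9 in the DMSO-labelled library. Outside this class, Mmp19, which cuts basement membrane proteins, had 4906 reads in the GANT61-labelled library and 2509 in the DMSO-labelled library, a ratio of 2.15 (2.05 to 2.26). Mmp27 had 225 reads in the GANT61-labelled library and 109 in the DMSO-labelled library, a ratio of 2.27 (1.80 to 2.88). Mmp23 had a ratio of 1.33 (1.19 to 1.49). Mmp28, epilysin, found in skin and other epithelia, was the only MMP called lower. It had 149 reads in the GANT61-labelled library and 385 in the DMSO-labelled library, a ratio of 0.427 (0.350 to 0.516). Mmp20, the enamel enzyme, had 0 reads in the GANT61-labelled library and 1 in the DMSO-labelled library, and Mmp21 had 0 in both.

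Because reads scale with gene length, levels of different genes were set side by side in the authors' RPKM values, reads per kilobase of gene length scaled to the library total. In the GANT61-labelled library the leading MMPs were Mmp12 at 214 RPKM, Mmp13 at 213, Mmp3 at 184 and Mmp9 at 148, followed by Mmp14 at 129. In the DMSO-labelled library Mmp14 led at 127 RPKM, followed by Mmp2 at 47.1, and Mmp3, Mmp9, Mmp13 and Mmp12 lay between 31.8 and 39.0. Mmp14 therefore made up 12.3% of the summed MMP RPKM in the GANT61-labelled library and 35.4% in the DMSO-labelled library. Mmp12 made up 20.4% in the GANT61-labelled library and 8.86% in the DMSO-labelled library. The summed RPKM of the 6 MMPs grouped here as membrane-anchored was 139.7 in the GANT61-labelled and 137 in the DMSO-labelled library. That of the other 17 MMPs, Mmp23 among them, was 909 in the GANT61-labelled and 221 in the DMSO-labelled library.

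**Figure D2:**
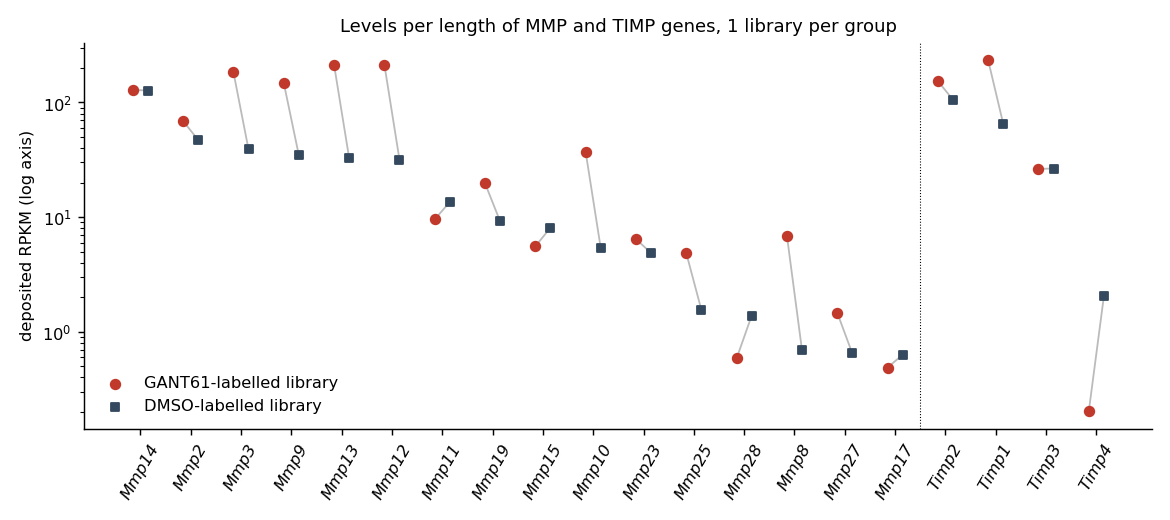
Deposited RPKM (log axis) of the 16 MMP and 4 TIMP genes whose mean was 1 CPM or more, ordered within each family by level in the DMSO-labelled library. Circles are the GANT61-labelled and squares the DMSO-labelled library. Mmp3, Mmp9, Mmp12 and Mmp13 lie between 148 and 214 RPKM in the GANT61-labelled library, and at 39.0 RPKM or less in the DMSO-labelled library, while Mmp14 is at 129 in the GANT61-labelled and 127 in the DMSO-labelled library.

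Position on the genome was a property that the choice of members did not use. Of the MMPs, 10 lie together on chromosome 9 between 7272514 and 7699585 (GRCm38, which is mm10), a stretch of 427 kb. Of these, 6 reached 1 CPM, each in both libraries, and all 6 were higher in the GANT61-labelled library. In order along the chromosome these were Mmp13, Mmp12, Mmp3, Mmp10, Mmp8 and Mmp27, with ratios between 2.27 and 9.95. The other 4, Mmp1b, Mmp1a, Mmp20 and Mmp7, had at most 30 reads in either library. Outside the cluster, 3 of the 10 MMPs that reached 1 CPM were higher, namely Mmp9, Mmp19 and Mmp25. Over all genes 14.1% were higher. The cluster genes all belong to the MMP family, and the part of position in their ratios was not tested. Mmp12 and Mmp1b overlap at their ends on opposite strands, at 7344381 to 7369499 and 7368239 to 7388047. Of the 1449 exonic bases of Mmp1b in GENCODE, 157 are also exonic in Mmp12. The strand setting of the counting is not given in the sources used here, so reads of the genes in those bases cannot be told apart.

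**Figure D3:**
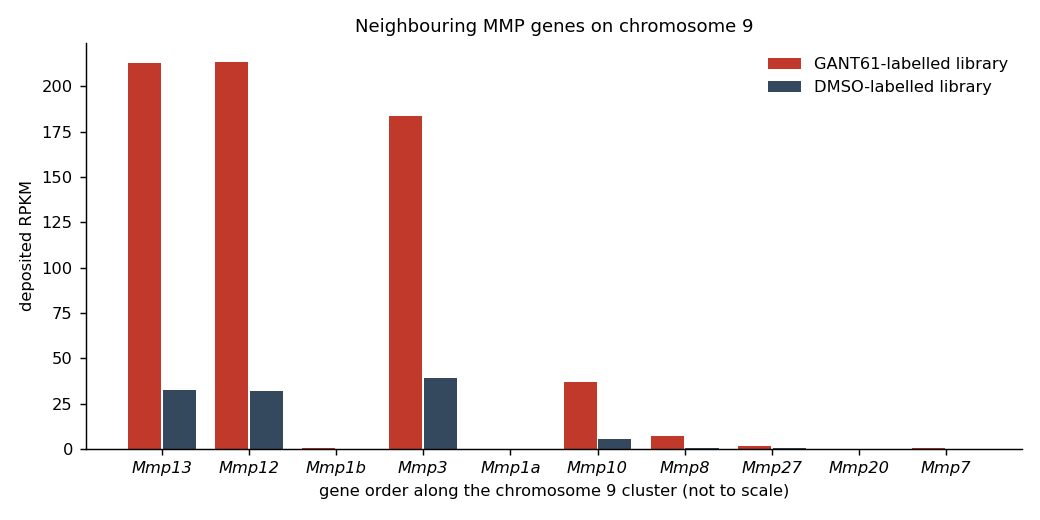
Deposited RPKM of the 10 MMP genes of the chromosome 9 cluster in their order on the chromosome, not to scale, in the GANT61-labelled (left bars) and DMSO-labelled (right bars) libraries. Mmp13, Mmp12 and Mmp3 reach 213, 214 and 184 RPKM in the GANT61-labelled library, while Mmp1b, Mmp1a, Mmp20 and Mmp7 stay near 0 in both libraries.

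The promoters of this cluster are shown because 6 of its members were called in one direction and because MMP promoters are known for sites of AP-1, a transcription factor made of Fos and Jun proteins. A broad form of the AP-1 consensus, TGANTCA with any base at N, reads alike on both strands. It was searched in the 250 bases before each RefSeq start (GRCm38.p6). A promoter was found for 47 of the 75 genes. The motif was present for 8 of the 10 cluster genes, 8 of the 18 MMPs, 3 of 15 ADAMs, 0 of 10 ADAMTS genes and 0 of the 4 TIMPs, against 7.82% of all 27025 genes with a promoter. The 8 MMPs and the 8 cluster genes are the same genes, so no MMP promoter searched outside the cluster held the motif. Mmp8 and Mmp27, both higher in the GANT61-labelled library, did not hold it, and Mmp1a, Mmp1b, Mmp7 and Mmp20 held it with hardly any reads. The matches of Mmp20 and Adam25 were TGAATCA, with A as the middle base, while the other members with a match had G or C there. A match describes these letters, not a bound site. The 100 bases before the start follow, on the strand of the gene, with the motif in capitals. The first 4 genes were higher and hold the motif, Mmp7 holds it with few reads, and Mmp8 was higher without it.
Mmp13: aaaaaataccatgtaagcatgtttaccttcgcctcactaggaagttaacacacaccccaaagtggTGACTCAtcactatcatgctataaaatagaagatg
Mmp12: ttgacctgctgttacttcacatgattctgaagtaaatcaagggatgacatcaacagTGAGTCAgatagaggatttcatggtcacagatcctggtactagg
Mmp3: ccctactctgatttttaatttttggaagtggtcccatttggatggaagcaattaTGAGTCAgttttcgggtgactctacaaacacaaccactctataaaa
Mmp10: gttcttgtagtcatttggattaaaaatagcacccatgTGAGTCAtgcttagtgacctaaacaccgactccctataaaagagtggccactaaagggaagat
Mmp7: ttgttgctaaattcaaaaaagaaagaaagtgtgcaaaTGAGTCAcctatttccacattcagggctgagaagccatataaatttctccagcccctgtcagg
Mmp8: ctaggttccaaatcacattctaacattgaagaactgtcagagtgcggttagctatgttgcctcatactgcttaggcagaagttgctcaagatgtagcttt

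These windows lie on chromosome 9 (GRCm38.p6), all on the plus strand, at chr9:7272414-7272513 for Mmp13, chr9:7347274-7347373 for Mmp12, chr9:7445722-7445821 for Mmp3, chr9:7502242-7502341 for Mmp10, chr9:7691990-7692089 for Mmp7 and chr9:7558329-7558428 for Mmp8. The motif began 35 bases before the start in Mmp13, 44 in Mmp12, 46 in Mmp3 and 63 in both Mmp10 and Mmp7. RefSeq gives both Mmp12 and Mmp7 another start whose window did not hold the motif. That of Mmp12 is the upstream one, with its 100 bases at chr9:7344297-7344396, so the printed window lies inside the gene span given above. That of Mmp7 is downstream, with its 100 bases at chr9:7692241-7692340. RefSeq promoters of Mmp2, Mmp9 and Mmp19 were not used here.

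The 4 TIMPs differed among themselves. Timp1, the inducible inhibitor, had 14948 reads in the GANT61-labelled library and 4560 in the DMSO-labelled library. Its ratio was 3.61 (3.49 to 3.73), between those of Mmp9 and Mmp25. Timp2, a broadly expressed inhibitor that also takes part in Mmp2 activation with Mmp14, was at 705.1 CPM in the GANT61-labelled and 482.4 CPM in the DMSO-labelled library, a ratio of 1.46 (1.44 to 1.48), just under the threshold. Timp3, which binds to the matrix and also inhibits ADAM17 and ADAMTS proteoglycanases, was at 156.2 CPM in the GANT61-labelled and 156.6 CPM in the DMSO-labelled library, a ratio of 0.997 (0.969 to 1.03). Timp4 had 43 reads in the GANT61-labelled library and 475 in the DMSO-labelled library, a ratio of 0.101 (0.0712 to 0.136), the smallest of the 46 genes.

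Timp4 is a TIMP of restricted distribution, known from heart and adipose tissue. Beside it, all 12 adipocyte markers were lower in the GANT61-labelled library, with a median log2 ratio of -2.61 against -3.31 for Timp4 itself. The part of adipocyte RNA in the Timp4 ratio was not tested. Per length, Timp1 led the inhibitors in the GANT61-labelled library at 233 RPKM, with Timp2 at 154. In the DMSO-labelled library Timp2 led at 106 RPKM, with Timp1 at 64.9. The summed RPKM of MMPs was 2.53 times that of TIMPs in the GANT61-labelled library and 1.80 times in the DMSO-labelled library. Relative to Timp1 alone, the same sum was 4.49 times in the GANT61-labelled library and 5.52 times in the DMSO-labelled library. These are ratios of transcripts, and say nothing of protein or activity.

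**Figure D4:**
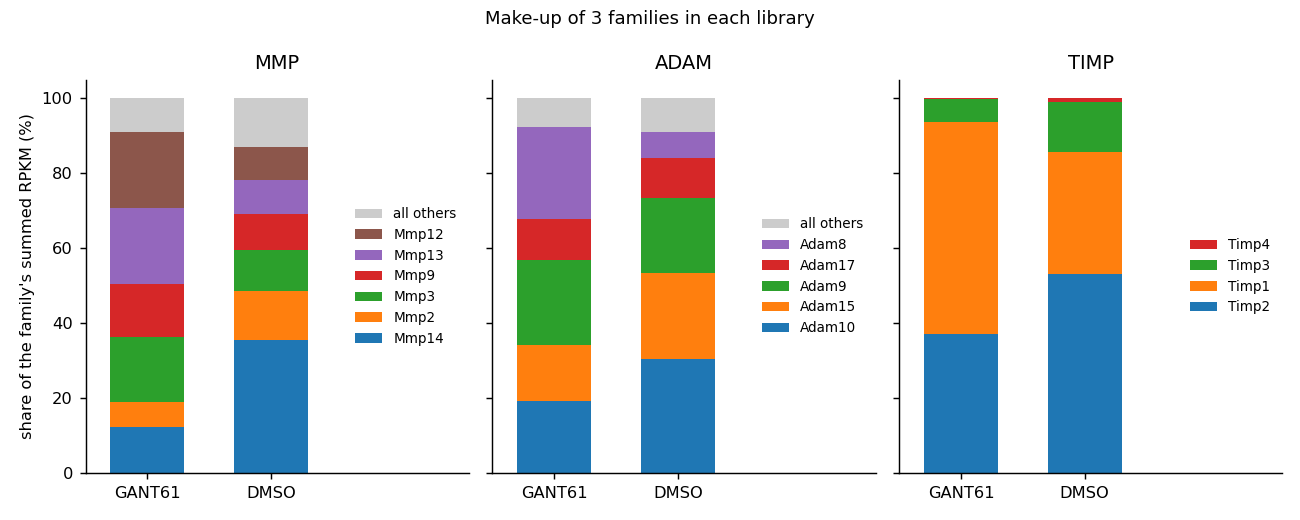
Share of the summed deposited RPKM of each family taken by its members, in the GANT61-labelled (left) and DMSO-labelled (right) library, for MMPs, ADAMs and TIMPs. In the GANT61-labelled library Mmp14 holds 12.3%, Adam8 24.6% and Timp1 56.4%, against 35.4%, 6.83% and 32.6% in the DMSO-labelled library; MMPs and ADAMs under 5% in both libraries are pooled as all others.

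All 5 ADAMs called higher belonged to the class with proteinase activity in somatic cells. This class held 9 genes and supplied 8 of the 12 ADAMs that reached 1 CPM. Of the 8, 5 were higher and 0 lower, beside 14.1% and 10.3% of all genes. The median log2 ratio of the 8 was 0.63. Adam8, a sheddase of leukocytes and osteoclasts, had 13609 reads in the GANT61-labelled library and 2445 in the DMSO-labelled library. Its ratio of 6.13 (5.87 to 6.40) was close to those of Mmp12 and Mmp13. It lies on chromosome 7 at 139978932 to 139992562, minus strand. Adam9, a widely expressed sheddase, had 16291 reads in the GANT61-labelled library and 9352 in the DMSO-labelled library, a ratio of 1.92 (1.87 to 1.97). Adam17, the enzyme that releases tumour necrosis factor and ligands of the EGF receptor, was at 155 CPM in the GANT61-labelled and 88.9 CPM in the DMSO-labelled library, a ratio of 1.74 (1.69 to 1.80). Adam12 and Adam19, the meltrins alpha and beta, had ratios of 1.57 (1.49 to 1.65) and 1.53 (1.46 to 1.60), just over the threshold.

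Other ADAMs differed little or were barely detected. Adam10, which cuts Notch receptors and cadherins, was at 277 CPM in the GANT61-labelled and 256 CPM in the DMSO-labelled library, a ratio of 1.08 (1.06 to 1.11). Adam15, which cuts adhesion proteins, had a ratio of 1.11 (1.07 to 1.14). Adam10 led the ADAMs per length in the DMSO-labelled library at 44.1 RPKM and in the GANT61-labelled library, at 47.5 RPKM, stood behind Adam8 at 60.7 and Adam9 at 56.1. The 3 somatic ADAMs without catalytic residues, Adam11, Adam22 and Adam23, known from the nervous system, had ratios from 0.849 to 1.23 and none was called. The 17 remaining ADAM genes, grouped here as genes of testis and epididymis, had at most 61 reads in the GANT61-labelled library and 69 in the DMSO-labelled library. Only Adam1a among them reached 1 CPM.

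Among genes that reached 1 CPM, ADAMTS ratios covered a narrower range than those of the other families. Below that level, Adamts17, Adamts18 and Adamts19 had ratios of 0.191, 0.273 and 0.446. Adamts15, which cuts the proteoglycans aggrecan and versican, was at 40.4 CPM in the GANT61-labelled library and 15.4 CPM in the DMSO-labelled library, a ratio of 2.62 (2.43 to 2.83). It lies on chromosome 9 at 30899155 to 30922452, minus strand, far from the MMP cluster. Adamts4, aggrecanase 1, was at 80.2 CPM in the GANT61-labelled and 52.0 CPM in the DMSO-labelled library, a ratio of 1.54 (1.47 to 1.61), just over the threshold. Adamts1, an inducible proteoglycanase, had a ratio of 1.24 (1.18 to 1.30), Adamts5, aggrecanase 2, of 0.917 (0.865 to 0.971) and Adamts9 of 0.736 (0.686 to 0.790).

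The procollagen N-propeptidases, which trim fibrillar procollagens, had similar ratios, with none called. Adamts2 was at 112 CPM in the GANT61-labelled library and 89.9 CPM in the DMSO-labelled library, a ratio of 1.25 (1.21 to 1.30), Adamts3 had a ratio of 1.24 (0.907 to 1.70) and Adamts14 of 1.34 (1.21 to 1.47). Adamts2 led the family per length in both libraries, at 12.2 RPKM in the GANT61-labelled and 9.81 RPKM in the DMSO-labelled library, followed by Adamts1 and Adamts4 in both. Adamts7 and Adamts12, which cut cartilage oligomeric matrix protein, had ratios of 1.32 (1.20 to 1.45) and 0.887 (0.846 to 0.929). Adamts13, the von Willebrand factor proteinase, had 24 reads in the GANT61-labelled and 23 in the DMSO-labelled library.

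Genes that act with these proteinases were taken from 6 lists with 78 measured genes, of which 65 reached 1 CPM. Of these, 22 were higher and 5 lower, beside 14.1% higher and 10.3% lower over all genes. The 4 lists with 6 to 9 such genes had 1 or 2 called in a direction, and their shares are not read as different from those of all genes. The activators and plasmin system had 6 of 10 higher and 0 lower, and a median log2 ratio of 0.79. Serpinb2, an inhibitor of urokinase, had a ratio of 9.92 (8.86 to 11.2). Plau, urokinase itself, was at 354 CPM in the GANT61-labelled and 150.3 CPM in the DMSO-labelled library, a ratio of 2.36 (2.30 to 2.42). Its receptor Plaur had a ratio of 1.87 (1.78 to 1.97), and Pcsk5, a proprotein convertase, of 1.74 (1.64 to 1.85). Plasminogen, Plg, had 2 reads in the GANT61-labelled library and 1 in the DMSO-labelled library.

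Inhibitors and metalloproteinases outside the 4 families went both ways. Of 6 other inhibitors, 1 was higher and 1 lower. Tfpi2 had a ratio of 1.55 (1.44 to 1.66) and Papln, papilin, of 0.428 (0.381 to 0.480), while Reck, a membrane-anchored MMP inhibitor, was at 0.880 (0.784 to 0.987). Of 9 other surface or secreted enzymes, Anpep, aminopeptidase N, was higher at 2.78 (2.70 to 2.87) and Mme, neprilysin, lower at 0.368 (0.337 to 0.401). Among 8 partners of ADAM10 and ADAM17, Rhbdf2, the iRhom that matures ADAM17 in immune cells, had a ratio of 1.67 (1.59 to 1.75) and Tspan33 of 1.55 (1.27 to 1.88). Tspan15, which directs ADAM10, was lower at 0.626 (0.559 to 0.699).

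Among 24 genes for proteins shed by ADAM10 or ADAM17, 11 were higher and 0 lower, beside 14.1% and 10.3% of all genes. The median log2 ratio of the 24 was 0.53. The 11 included Il1r2, a decoy receptor of interleukin 1, at 4.54 (4.01 to 5.16), Tnf at 3.32 (2.78 to 4.01), Ereg at 2.76 (2.11 to 3.68) and Csf1r at 2.61 (2.57 to 2.65). Csf1r and Mertk of this list are also macrophage markers here. Of 8 ADAMTS substrates, 1 was higher and 2 lower. Fbn1, fibrillin 1, had a ratio of 1.63 (1.59 to 1.66), Fbn2 of 0.489 (0.413 to 0.576) and Comp of 0.388 (0.284 to 0.520).

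Markers of several cell types moved in the same direction as the higher proteinases. Among 14 macrophage markers, 12 were higher and 0 lower, beside 14.1% and 10.3% of all genes. The macrophage markers had a median log2 ratio of 0.89, with ratios from 1.31 to 3.36. The ratios of 8 members, Mmp3, Mmp8, Mmp9, Mmp10, Mmp12, Mmp13, Adam8 and Timp1, were above the largest of these, that of Cd68 at 3.36 (3.26 to 3.47), and none of their intervals reached it. These intervals cover counting error only and hold no spread between libraries. Of 12 neutrophil markers, 8 reached 1 CPM, with 5 higher and 1 lower, and their summed level was 1292 CPM in the GANT61-labelled library and 583.5 CPM in the DMSO-labelled library. The 5 higher were S100a9, Cxcr2, S100a8, Ltf and Csf3r, with ratios from 6.62 (6.29 to 6.97) for S100a9 to 4.01 (3.80 to 4.23) for Csf3r, beside 9.95 for Mmp8. Lcn2, which had the most reads of the list, was at 1.16 (1.14 to 1.18) and Retnlg at 1.12 (1.03 to 1.22), neither past the threshold, while Ngp was lower at 0.584 (0.424 to 0.792). The other 4 neutrophil markers, Ly6g, Camp, Elane and Mpo, were below 1 CPM. Ly6g had 31 reads in the GANT61-labelled library and 13 in the DMSO-labelled library, a ratio of 2.57 (1.34 to 5.47). Camp, Elane and Mpo had ratios of 0.589 (0.251 to 1.25), 0.593 (0.0891 to 2.58) and 0.627 (0.351 to 1.07), with intervals that spanned 1. The granule genes Elane and Mpo were at 0.0528 and 0.387 CPM in the GANT61-labelled library and 0.0959 and 0.623 CPM in the DMSO-labelled library.

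Stratified epithelium markers were higher for 10 of 10, with a median log2 ratio of 1.86 and summed levels of 913 CPM in the GANT61-labelled and 438 CPM in the DMSO-labelled library. Krt6a, a keratin of activated keratinocytes, had a ratio of 7.31 (6.48 to 8.29). None of 12 fibroblast markers was higher and 2 were lower, the median being 0.14. For the 12 epithelial markers the median was -0.14, with 2 lower and only 1 higher, namely Krt5, a keratin of basal epithelium, at 3.13 (3.04 to 3.22). Endothelial markers had a median of -0.36, with 1 higher and 3 lower of 10. Mast cell markers gave 2 of 8 higher, T and natural killer cell markers 2 of 9, and B cell markers 2 of 8. Smooth muscle and pericyte markers gave 1 higher and 1 lower of 8. Counts of 1 or 2 are not read as different from the 14.1% higher and 10.3% lower over all genes. B cell markers summed to 1359 CPM in the GANT61-labelled library and 353 CPM in the DMSO-labelled library. Most of this was Jchain, at 1198 CPM in the GANT61-labelled and 225 CPM in the DMSO-labelled library, while 6 of the 8 were neither. The part of any of these cell types in the metalloproteinase ratios was not tested.

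**Figure D5:**
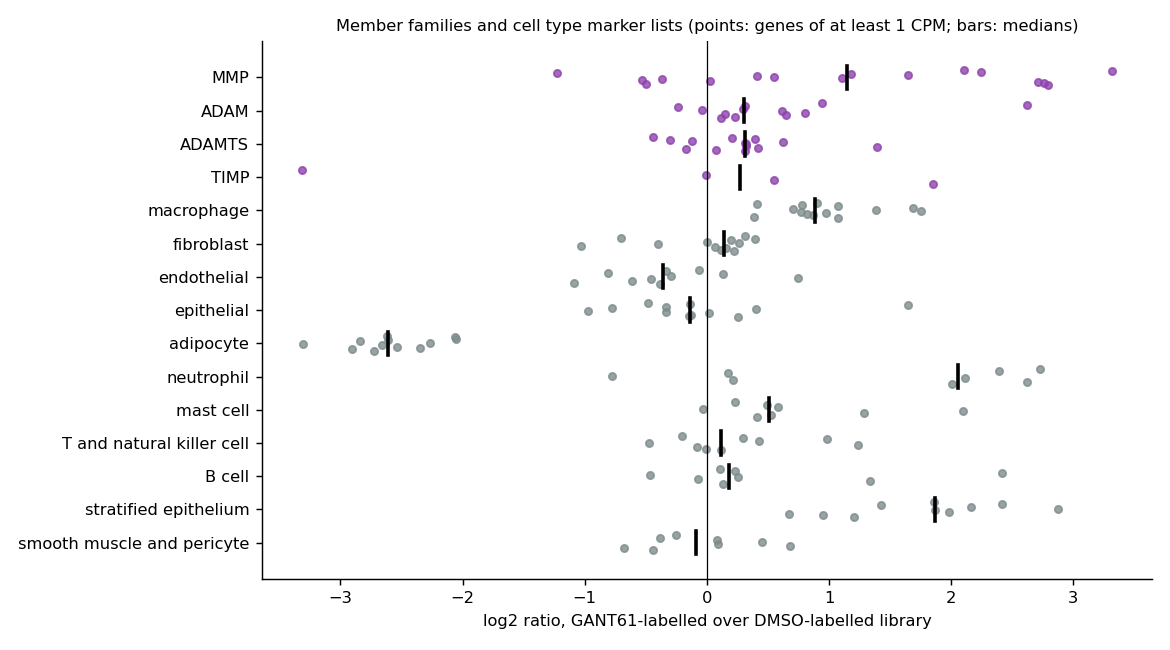
Log2 ratio of the GANT61-labelled over the DMSO-labelled library for the 4 families (purple) and 11 cell type marker lists (grey), each point a gene whose mean was 1 CPM or more and each bar a median. The MMP median is 1.14, beside 0.89 for macrophage, 1.86 for stratified epithelium, 0.14 for fibroblast and -2.61 for adipocyte markers.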

How the data were processed

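Gene-level estimated counts, before any normalization, and RPKM values, which divide reads by gene length and library total, were deposited by the authors with 1 column for each library. Per the submitters' processing notes, STAR, HISAT2, cutadapt, SAMtools, Partek and the builds mm10 and hg19 were used. Their roles, the counter, the annotation and the strand setting are not given in the sources used here. Columns were tied to libraries by the treatment in their names alone, since the numbers in the column names are not those in the sample titles. Of the 75 members, 15 had a count that was not whole (by more than 0.01) in the GANT61-labelled library and 10 in the DMSO-labelled library.

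Counts were rounded to whole numbers and scaled over the whole table with TMM factors (trimmed mean of M values, edgeR 4.0.16, R 4.3.3). Ratios used a prior count of 0.5 per library. Intervals are 95% exact Clopper-Pearson intervals of the split of reads (scipy 1.17.1). They cover counting error only, because each group had 1 library. Amplified reads that carry no molecular identifier may repeat a molecule, so counting error may be larger than the intervals show. A count of 0 allows up to 3 counts, 0.0528 CPM in the GANT61-labelled library and 0.0479 CPM in the DMSO-labelled library. The steps were tested on simulated data. Alternatives were DESeq2 1.42.0 size factors, total counts, upper-quartile scaling, a prior count of 2, no floor, a floor of 5 CPM, a fold of 2 and the deposited RPKM values with 0.1 added.

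Positions are from GENCODE M21 (GRCm38) and promoters from RefSeq. Members and gene lists were chosen with earlier results of these data known. Named genes were every called member, a set of well known members whatever their values, the 3 most abundant per family and up to 4 called genes per list. Members and list genes outside this rule were chosen after their values were seen. Of the marker genes listed, Trac and Ighm were not analysed here, nor was Mep1b of the proteinase lists. Protein sequences were not used here.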

Additional observations from a re-analysis of the deposited data

How the results depend on the processing

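The direction of all 19 called members was kept under every scaling, prior count and the deposited RPKM values. With total counts 10 of the 75 members, and with upper-quartile scaling 8, left their main counting intervals. Mmp14, which was not called, changed direction. Its log2 ratio was 0.024 in the main setting, -0.020 with total counts and -0.016 with upper-quartile scaling. Of the 17 higher and 2 lower members, 15 and 2 were called with total counts only or upper-quartile scaling, under which Adam19 and Adamts4 fell below the threshold, and all 19 with DESeq2 size factors. With a fold of 2, 12 remained higher and 2 lower, while all genes gave 972 higher and 595 lower. With no floor, 18 members were higher and 6 lower, and all genes gave 2585 and 1889. With a floor of 5 CPM, 16 were higher and 0 lower, since Timp4, Mmp28 and Mmp27 lay under it, and all genes gave 1380 and 998. The MMP median was 0.77 with no floor and 1.65 with a floor of 5 CPM, against 1.14. Low counts limited the 29 members below 1 CPM, whose intervals mostly spanned a ratio of 1. Whether greater depth would change this was not tested. No paired analysis was possible because each group has 1 library.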

Other observations

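Among the 29 members below 1 CPM, chosen after their values were seen, 5 had ratios past the fold threshold with intervals that excluded 1. Of all 6064 genes below 1 CPM, 17.6% did, so the count of 5 of 29 does not set the members apart. Adamts17 had 14 reads in the GANT61-labelled library and 83 in the DMSO-labelled library, a ratio of 0.191 (0.0973 to 0.329). Adamts18 was counted at 16 reads in the GANT61-labelled and 66 in the DMSO-labelled library, with a ratio of 0.273 (0.144 to 0.466). For Adamts19 the reads were 26 in the GANT61-labelled and 65 in the DMSO-labelled library, with a ratio of 0.446 (0.268 to 0.704). Adam28, a lymphocyte ADAM, was counted at 16 in the GANT61-labelled and 38 in the DMSO-labelled library, with a ratio of 0.472 (0.241 to 0.852). Mmp1b, with 30 reads in the GANT61-labelled and 3 in the DMSO-labelled library, was the only one higher, at 9.60 (3.42 to 56.4), and shares 157 exonic bases with Mmp12.

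Timp1, Timp3 and Timp4 each lie inside a synapsin gene on the opposite strand, and the host genes were counted at low levels. Syn1, which holds Timp1, had 143 reads in the GANT61-labelled library and 46 in the DMSO-labelled library. Syn3, which holds Timp3, had 80 reads in the GANT61-labelled and 47 in the DMSO-labelled library, and Syn2, which holds Timp4, had 50 in the GANT61-labelled and 162 in the DMSO-labelled library. In GENCODE, Timp1 shares 0 exonic bases with Syn1, while Timp3 shares 1733 of its 8144 with Syn3 and Timp4 shares 90 of its 5894 with Syn2. Without a stated strand setting, reads in those shared bases cannot be assigned to one gene. Timp1 and Timp3 had 14948 and 8878 reads in the GANT61-labelled library, far above their hosts. Timp4 itself had 43 reads in the GANT61-labelled and 475 in the DMSO-labelled library.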
